A study of Mus musculus with 4 samples.

Results

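Polyadenylated RNA of mouse embryonic stem cells labelled Dicer-/- was compared with that of WT stem cells over all rows of the series' mRNA table, 1 library on each side. Of 13815 rows, each a RefSeq transcript entry with a gene symbol, 13403 held at least 1 CPM in either library and were compared, and 412 lay under that floor. CPM is a row's count scaled so that each library sums to 1000000, and it is not corrected for transcript length. The WT library is labelled V6.5, a hybrid mouse stem cell line, and the Dicer knockout carries the same strain label. How the Dicer allele was made, whether 1 clone was used and whether cultures were parallel are not stated, so the genotype, the line and the culture cannot be told apart. All cells were grown in DMEM with serum, leukaemia inhibitory factor (sold as ESGRO) and antibiotics, and their polyadenylated RNA was made into strand-marked libraries. The series also holds a Dgcr8-/- library and a library of WT small RNA, and its title concerns the control of the miR-17~92 cluster. With 1 library a side, no test of the conditions was possible: each fold below is the ratio of CPM, and its 95% interval covers counting error only. Reads are not independent molecules, and the spread between separate cultures is not in these intervals.

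Dicer is the ribonuclease that cuts hairpin precursors in the cytoplasm into mature miRNAs and into small interfering RNAs. Dgcr8, with Drosha, acts one step earlier and cuts the hairpin out of the primary transcript in the nucleus, so cells without either protein lack the canonical miRNAs. A mature miRNA guides an Argonaute protein to messenger RNAs that pair with bases 2 to 8 of the miRNA, its seed, and the messenger is then destabilised or translated less. In mouse embryonic stem cells the miR-290 cluster is the main source of miRNAs and is known for shortening G1 through repression of cell cycle inhibitors.

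The sequences below are the miRNAs that WT cells held and that the gene lists in the results refer to, with the seed in capitals, 5′ to 3′, from RefSeq. The first 3 share the seed AAGUGCU, the next 3 the seed AAAGUGC shifted by 1 base, miR-293-3p is the one with the most WT reads, and let-7f-5p has the seed of the let-7 family.
miR-294-3p: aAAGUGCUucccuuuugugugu
miR-291a-3p: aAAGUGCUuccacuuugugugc
miR-295-3p: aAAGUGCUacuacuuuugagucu
miR-17-5p: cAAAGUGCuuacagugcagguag
miR-20b-5p: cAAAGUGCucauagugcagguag
miR-93-5p: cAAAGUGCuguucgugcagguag
miR-293-3p: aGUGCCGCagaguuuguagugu
let-7f-5p: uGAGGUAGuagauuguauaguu

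In the WT small RNA library, with 2594949 reads over 707 miRNA names, the miR-290 cluster held 78.1% of reads. The 5 miRNAs with the seed AAGUGCU held 25.7% and the 6 with AAAGUGC held 1.60%, while the let-7 seed GAGGUAG was at 0.0328% over 9 miRNAs. miR-293-3p alone had 38.5% and does not carry AAGUGC in its seed. Small RNA of the Dicer knockout was not analysed here, so the loss of these miRNAs was not measured directly.

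The targeted gene checked the label first. Dicer1 had 79.9 CPM in WT against 20.1 in the Dicer knockout, and 128 CPM in the Dgcr8 knockout. It was 3.98-fold lower (95% interval 3.45 to 4.61). The transcript was thus lower in the library labelled Dicer-/- but not absent, and which exons the counts came from is not known from gene counts. All 5 stem cell markers (Pou5f1, Sox2, Nanog, Dppa5a and Fbxo15) were present in both libraries, with sums of 8594 CPM in WT against 6906 for the knockout. Pou5f1, the core factor of the pluripotent state, was 1.35-fold lower (95% interval 1.32 to 1.38), and Nanog, which sustains it, had 405 CPM in WT against 417 in the Dicer knockout. Of the markers of other cell types, all 5 neural ones were in the table, with a sum of 137.5 CPM in WT against 189 for the knockout and a highest single marker of 126 and 129 CPM. Further, 4 of 12 feeder fibroblast markers were in the table, none of them at 0, with a sum of 41.2 CPM in WT against 3.01 for the knockout, and none of 3 haematopoietic markers was.

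Between the libraries, 2144 genes, or 16.0% of those compared, reached 2-fold or more above WT, and 1300, or 9.70%, reached 2-fold or more below it. Both counts use log2(CPM + 1), a scale that understates ratios of low genes, and every log2 ratio below is on it. The median gene had a log2 ratio of 0.10, and the middle 50% ran from -0.43 to 0.67. Under scalings that set the middle of the genes to equal levels (TMM or median ratios) that median becomes about 0, a shift of about 0.1, and 1913 or 1903 genes were higher and 1510 or 1526 lower. All list medians below should be read against 0.10, and all list counts against the 16.0% higher and 9.70% lower of all genes. Of the genes called, 514 of the higher ones reached the floor only in the knockout and 436 of the lower ones only in WT.

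The share past 2-fold depended on the level. Among 869 genes with a mean of 200 CPM or more, 5.75% were higher and 5.29% lower. Among 2890 genes between 2 and 10 CPM the shares were 20.8% and 15.4%. Noncoding entries leaned the other way from coding ones, with 10.6% higher and 15.7% lower of 574, against 16.2% and 9.43% of 12829 coding entries. At 8-fold, 146 genes were higher (1.09%) and 52 lower (0.388%).

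**Figure D1:**
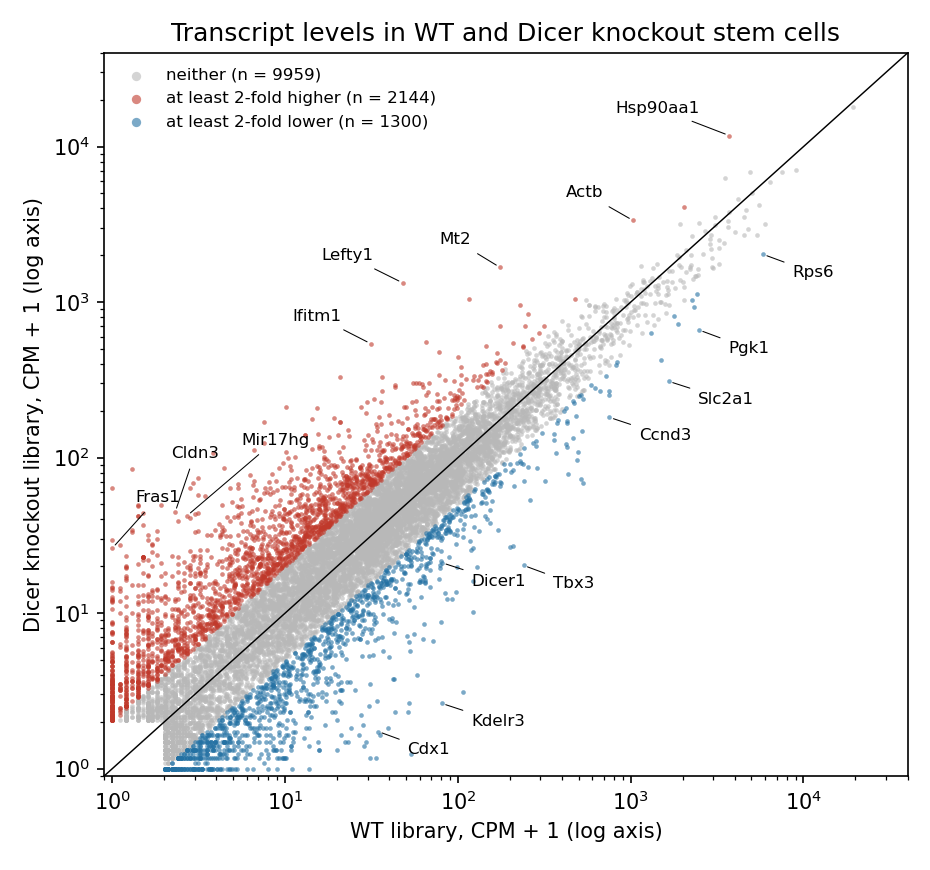
Each point is a gene, with its level in the WT library on the x axis and in the Dicer knockout library on the y axis, both as CPM + 1 on log axes. Red points are the 2144 genes at least 2-fold higher, blue points the 1300 at least 2-fold lower, grey points neither, and the line marks equal levels.

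At the far ends lay genes nearly silent in one library. Trim67, a brain-enriched ubiquitin ligase, had 0 counts in WT against 350 in the Dicer knockout, and was at least 94.1-fold higher against 3 counts in WT, the floor used for a library at 0. Fat2, a giant cadherin of epithelia and cerebellum, had 5 counts in WT against 527 in the Dicer knockout and was 85.0-fold higher (95% interval 36.2 to 263). Fras1, a protein of the embryonic basement membrane, had 0 counts in WT against 310 in the Dicer knockout. At the other end Ndufa4l2, a hypoxia-induced mitochondrial protein, had 381 counts in WT against 10 in the Dicer knockout and was 47.2-fold lower (95% interval 25.4 to 99.3). Cdx1, a posterior homeodomain factor, was 45.9-fold lower (95% interval 23.9 to 101), and Steap1, a metalloreductase of the plasma membrane, was 32.3-fold lower (95% interval 19.7 to 57.0). The WT side of these higher genes rests on 5 counts or fewer, so their folds are imprecise.

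Very abundant genes differed as well. Hsp90aa1, the inducible cytosolic HSP90, had 3711 CPM in WT against 11784 in the Dicer knockout and gained more CPM than any other gene, while its constitutive relative Hsp90ab1 was 1.27-fold lower (95% interval 1.26 to 1.29). Actb, cytoplasmic actin, was 3.26-fold higher (95% interval 3.19 to 3.33), and the metallothioneins Mt1 and Mt2, small proteins that bind zinc and copper, were 9.00-fold higher (95% interval 8.47 to 9.57) and 9.63-fold higher (95% interval 9.17 to 10.1). Rps6, a protein of the small ribosomal subunit, had 5829.8 CPM in WT against 2028 in the Dicer knockout. Near-identical copies and pseudogenes exist for HSP90, actin and ribosomal genes, so the split of reads among copies is uncertain.

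Genes that make or use miRNAs were described as a list of 33 measured members, of which 9 were higher and 3 lower, with a median of 0.45. These shares, 27.3% and 9.09%, stand beside 16.0% and 9.70% of all genes. Argonaute genes, whose proteins hold the miRNA, stood at 33.8 and 182 CPM for Ago1 and 15.3 and 43.7 CPM for Ago2, WT first. GW182 proteins, which link Argonaute to the deadenylases, gave 4.69-fold higher (95% interval 4.18 to 5.27) for Tnrc6a, 3.73-fold higher (95% interval 3.22 to 4.32) for Tnrc6b and 2.21-fold higher (95% interval 1.96 to 2.49) for Tnrc6c. Mov10, an RNA helicase bound to Argonaute, was 3.61-fold higher (95% interval 3.41 to 3.83). Trim71, a ubiquitin ligase and RNA-binding protein that let-7 represses, was 2.60-fold higher (95% interval 2.06 to 3.31). Among processing genes, Drosha was 1.34-fold higher (95% interval 1.27 to 1.43), Xpo5, which exports the hairpins, 1.16-fold lower (95% interval 1.07 to 1.26), and Tarbp2, a partner of Dicer, 1.48-fold lower (95% interval 1.33 to 1.64). The 3 lower genes were Dicer1, Lin28a and Dis3l2. Lin28a and Lin28b, which block let-7 maturation, went in opposite directions: Lin28a was 3.38-fold lower (95% interval 3.06 to 3.73) and Lin28b 5.03-fold higher (95% interval 4.12 to 6.18). Dis3l2 degrades uridylated let-7 precursors and had 49.8 CPM in WT against 23.9 in the Dicer knockout.

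Reported targets of the AAGUGC seed and of miR-17~92 were drawn from the field's literature by name. In that list 16 of 32 measured members were higher and 2 lower, with a median log2 ratio of 1.04, where all genes compared gave 16.0% higher. Lats2, a Hippo kinase that restrains YAP and the cycle, had 2.11 CPM in WT against 42.7 in the Dicer knockout and was 20.2-fold higher (95% interval 13.1 to 32.9). Hipk3, a nuclear kinase, had 7.95 CPM in WT against 60.6 in the Dicer knockout and was 7.62-fold higher (95% interval 6.04 to 9.73). Dazap2, a small adaptor protein, was 6.87-fold higher (95% interval 6.21 to 7.62). The 2 lower members were Cdkn1c, a CDK inhibitor from an imprinted domain, at 3.87-fold lower (95% interval 3.28 to 4.58), and Ccng2, an atypical cyclin, at 2.10-fold lower (95% interval 1.70 to 2.59). Against WT, the Dgcr8 knockout gave the same list a median of 1.01. Both medians use the one WT library, and the direct Dicer to Dgcr8 ratio, which does not, had a median of 0.05.

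Reported let-7 targets, although let-7 was rare in WT, gave a similar picture: 13 of 29 measured members were higher and 3 lower, with a median log2 ratio of 0.82. Ccnd1 and Ccnd2, D cyclins that start G1 progression, had 98.8 and 440.2 CPM for Ccnd1 and 2.82 and 107 CPM for Ccnd2, WT first, and Plagl2, a zinc finger factor, was 3.58-fold higher (95% interval 2.99 to 4.31). Lower members were Dusp9, a phosphatase for ERK at -2.84, Myc at -1.99 and Lin28a at -1.74 in log2 ratio. The list shares genes with the cell cycle and biogenesis lists, so these counts are not separate evidence.

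**Figure D2:**
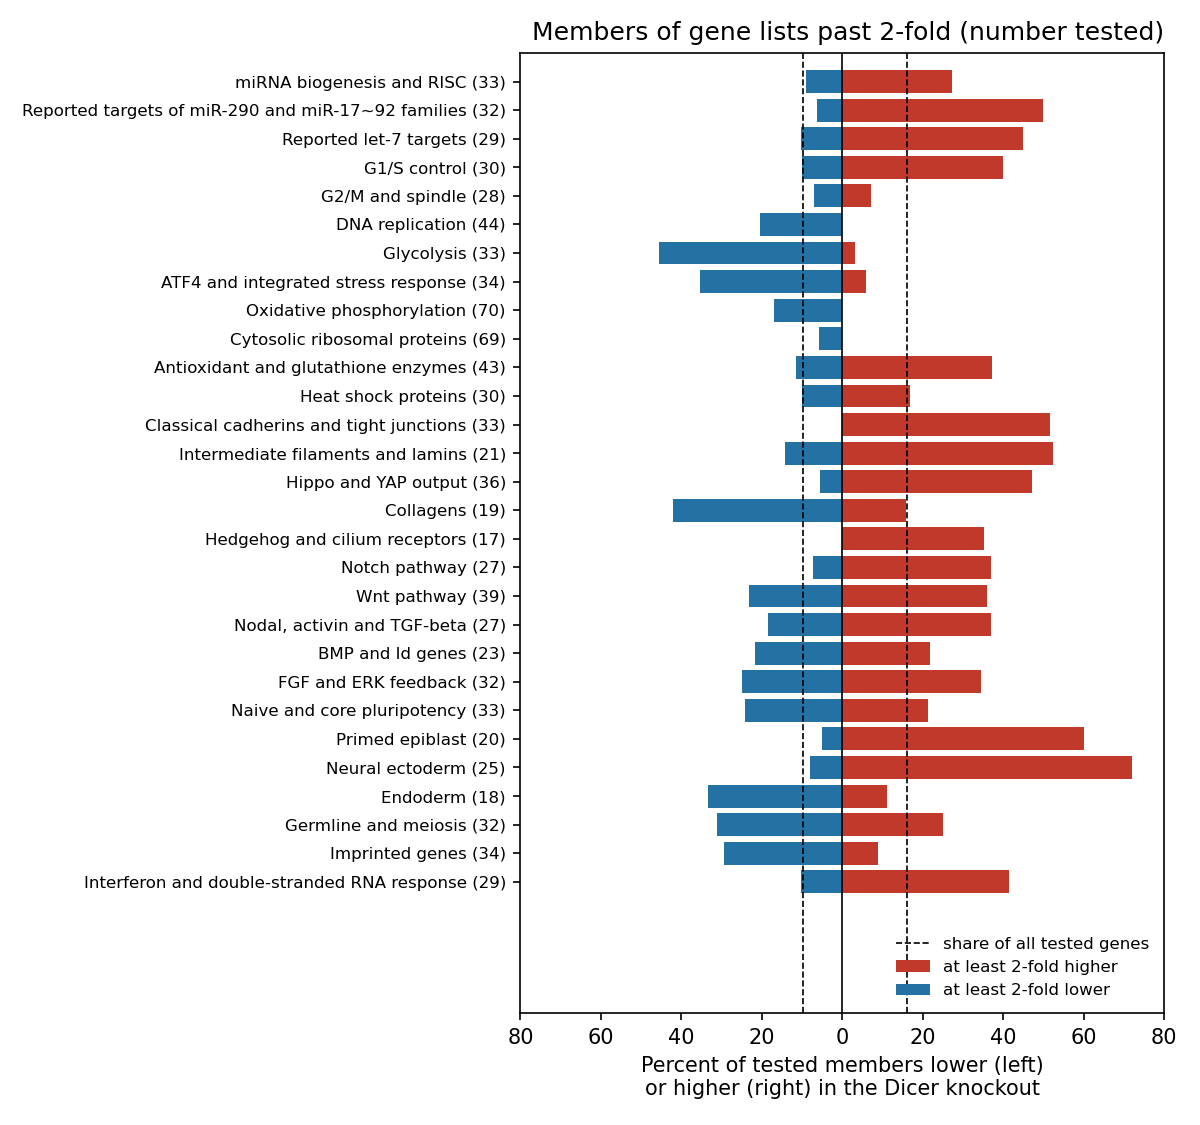
For each gene list, bars give the percent of measured members at least 2-fold higher (red, right) or lower (blue, left) in the Dicer knockout, with the number measured in brackets. Dashed lines mark the 16.0% and 9.70% of all compared genes: neural ectoderm, primed epiblast, junction and filament lists reach far past the right line, and glycolysis and collagens past the left.

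G1 regulators moved in both directions. In the G1/S list 12 of 30 measured members were higher and 3 lower, with a median log2 ratio of 0.77. Inhibitors of CDK4 and CDK6 from one locus were higher: Cdkn2a, which encodes p16 and ARF, had 22 counts in WT against 275 in the Dicer knockout and was 10.1-fold higher (95% interval 6.53 to 16.4), and Cdkn2b, which encodes p15, had 5 counts in WT against 71 in the Dicer knockout and was 11.5-fold higher (95% interval 4.69 to 36.4). D cyclins traded places, with Ccnd3 at 753 CPM in WT against 180.3 in the Dicer knockout, 4.17-fold lower (95% interval 3.98 to 4.38), and Ccnd1 4.46-fold higher (95% interval 4.16 to 4.77). The E2f4 repressor, with 284 CPM in WT against 118 in the Dicer knockout, was 2.41-fold lower (95% interval 2.26 to 2.57) and lies on chromosome 8. Mitotic genes differed little, since in the G2/M and spindle list 2 of 28 measured members were higher and 2 lower, with a median log2 ratio of 0.03. Its 4 genes past 2-fold were Nusap1 (1.16) and Cdc25b (1.09) above and Birc5 (-1.27) and Ttk (-1.05) below, in log2 ratio.

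DNA replication genes showed no member higher and 9 of 44 lower, with a median of -0.37. The lower share was 20.5%, against 9.70% of all genes. Gins2, part of the GINS complex of the replicative helicase, had 132 CPM in WT against 32.5 in the Dicer knockout and was 4.06-fold lower (95% interval 3.63 to 4.55). Mcm5, a subunit of the MCM ring, was 2.17-fold lower (95% interval 2.09 to 2.25), and Lig1, which seals Okazaki fragments, was 2.24-fold lower (95% interval 2.14 to 2.34). The position of these genes bears on the count: 6 of the 44 lie on chromosome 8, where transcripts were lower in general as described further on, and 5 of those 6 were among the 9. Outside chromosomes 8 and 14, 4 of 38 members were lower, a share near the 9.70% of all genes. No member was higher there, and the median was -0.23, against 0.12 for all genes outside the 2 chromosomes. Mcm7 and Rrm1, an MCM subunit and the large subunit of ribonucleotide reductase, had log2 ratios of 0.62 and 0.71.

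The glycolysis list was the metabolic group with the most lower members. Besides enzymes of glucose breakdown it holds transporters and the hypoxia-linked genes Egln1 and Ankrd37. Of 33 measured, 15 were lower and 1 higher, the median was -0.74, and the summed level went from 30791 CPM in WT to 20014 in the knockout. Egln1 and Ankrd37 lie on chromosome 8 and were both among the 15. Outside chromosomes 8 and 14, 13 of 31 members were lower and 1 higher, with a median of -0.70. Slc2a1, the main glucose transporter of growing cells, had 1660.5 CPM in WT against 308 in the Dicer knockout and was 5.39-fold lower (95% interval 5.20 to 5.58). Pgk1, phosphoglycerate kinase, had 2483 CPM in WT against 661 in the Dicer knockout, and Pfkp, a phosphofructokinase, was 4.97-fold lower (95% interval 4.56 to 5.42). Slc16a3, which exports lactate, was 4.12-fold lower (95% interval 3.71 to 4.59), and Ankrd37, a target of hypoxia-inducible factor, was 9.32-fold lower (95% interval 6.22 to 14.5). Lactate dehydrogenase subunits parted: Ldha had 2320.5 CPM in WT against 929 in the Dicer knockout, while Ldhb, the subunit that favours oxidation of lactate, had 83.0 CPM in WT against 316 in the Dicer knockout and was 3.81-fold higher (95% interval 3.54 to 4.12). The 1 higher member was Ldhb, so the enzymes did not all go one way. Slc2a1 in the Dgcr8 knockout stood at 598 and Pgk1 at 749 CPM, between WT and the Dicer knockout for the former and close to the Dicer knockout for the latter, and the list's median Dicer to Dgcr8 log2 ratio was -0.52.

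A second lower group was the ATF4 program, which cells use to answer amino acid shortage and other stress. In this list 2 of 34 measured members were higher and 12 lower, with a median log2 ratio of -0.80. Chac1, which degrades glutathione, had 35.7 CPM in WT against 4.71 in the Dicer knockout and was 7.59-fold lower (95% interval 5.73 to 10.2). Vegfa, the endothelial growth factor, was 6.46-fold lower (95% interval 5.07 to 8.33), Ddit4, an inhibitor of mTORC1, 5.17-fold lower (95% interval 4.63 to 5.77), and Ddit3, the stress factor CHOP, 4.04-fold lower (95% interval 3.05 to 5.42). Members above 2-fold were Gpt2, a mitochondrial alanine aminotransferase, at 2.56-fold higher (95% interval 2.35 to 2.80), and Sesn2, a leucine sensor, at 2.29-fold higher (95% interval 2.04 to 2.59). Atf4 itself, picked out after its value was seen, was 1.94-fold lower (95% interval 1.85 to 2.04). Serine, glycine and one-carbon enzymes, several of which ATF4 induces, had 4 of 30 higher and 6 lower.

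The lists of translation and respiration genes had medians below 0. Of 69 cytosolic ribosomal protein genes, 4 were lower and none higher, yet the median was -0.36 and the summed level went from 112718 to 80616 CPM. The 4 were Rps6, Rpl10l, Rps27l and Rplp1, with Rplp1 2.13-fold lower (95% interval 2.08 to 2.17). Under TMM scaling 8 of the 69 passed 2-fold lower. Since CPM are shares of one total, a lower sum here leaves more of the total to other genes. Of 70 oxidative phosphorylation genes 12 were lower and none higher, with a median of -0.38. The lowest ratios belonged to isoforms with restricted expression, Cox4i2, an alternative subunit of cytochrome oxidase, at 6.54 and 0.0812 CPM, and Cox6b2, a testis isoform, at 67.6 and 21.6 CPM.

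**Figure D3:**
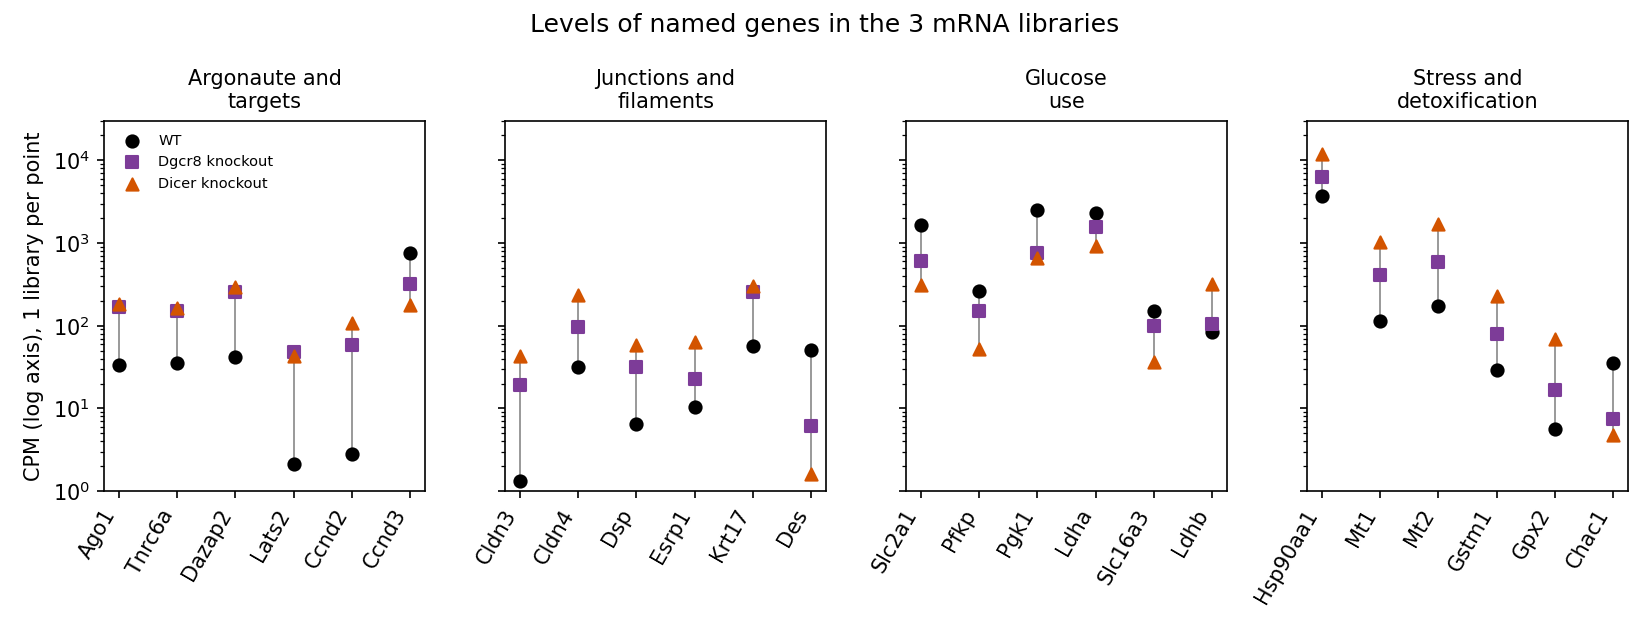
Levels of named genes in the WT, Dgcr8 knockout and Dicer knockout libraries, as CPM on a log axis, 1 library per genotype with no replicate error to draw, in panels for Argonaute and targets, junctions and filaments, glucose use, and stress and detoxification. Circles are WT, squares the Dgcr8 knockout and triangles the Dicer knockout: Slc2a1 descends in that order, whereas Cldn3 and Ccnd2 climb by more than 10-fold.

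Detoxifying enzymes formed a higher group. Among antioxidant and glutathione genes 16 of 43 measured members were higher and 5 lower, with a median log2 ratio of 0.70. Gpx2, a glutathione peroxidase of epithelia, had 5.64 CPM in WT against 69.3 in the Dicer knockout and was 12.3-fold higher (95% interval 9.37 to 16.4). A run of glutathione transferases on chromosome 3, Gstm6, Gstm3, Gstm2 and Gstm1, was higher throughout, with 7.86-fold higher (95% interval 6.96 to 8.91) for Gstm1 and 5.88-fold higher (95% interval 4.24 to 8.37) for Gstm3, although these near-identical neighbours may share reads. Gsto1, an omega-class transferase, was 4.47-fold higher (95% interval 4.12 to 4.87). The list was not uniform: Gpx3, the secreted peroxidase, had 33.1 CPM in WT against 1.71 in the Dicer knockout and was 19.4-fold lower (95% interval 12.5 to 31.8), Hmox1, which breaks down haem, was 2.44-fold lower (95% interval 2.20 to 2.71), and Sod1 had a log2 ratio of -1.04. Slc40a1, the iron exporter ferroportin, had 5 counts in WT against 117 in the Dicer knockout. Among heat shock genes 5 of 30 measured members were higher and 3 lower, with a median log2 ratio of 0.08, shares close to those of all genes. Besides Hsp90aa1, the highest ratio there was that of Hspa4l, an HSP110-type chaperone, which was 6.45-fold higher (95% interval 2.94 to 16.8). Lysosomal genes gave 6 higher and 1 lower of 39, the higher ones 15.4% against 16.0% of all genes, with Ctsa, a protective carboxypeptidase, 6.52-fold higher (95% interval 5.83 to 7.31) and Ctsh, an aminopeptidase, 14.9-fold lower (95% interval 3.69 to 129.8).

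Epithelial junction genes were higher as a group. Of 33 measured cadherin, desmosome and tight junction genes, 17 were higher and none lower, with a median of 1.02. Of the 17, 3 reached the floor of 1 CPM only in the knockout. With a pseudocount of 0.1 CPM 18 were higher and 2 lower, and under median-ratio scaling 16 were higher and 1 lower. Cldn3, a sealing claudin, had 1.31 CPM in WT against 43.6 in the Dicer knockout and was 33.3-fold higher (95% interval 19.3 to 63.0). Cldn4, another claudin, was 7.47-fold higher (95% interval 6.65 to 8.42), Dsp, which ties desmosomes to filaments, 8.83-fold higher (95% interval 6.84 to 11.6), and Esrp1, an epithelial splicing factor, 6.18-fold higher (95% interval 5.02 to 7.67). The mesenchymal and neural cadherin Cdh2 belongs to the same list and had 1 count in WT against 326 in the Dicer knockout. Cdh1, the epithelial cadherin of stem cell colonies, was picked out after its value was seen and was 1.16-fold higher (95% interval 1.10 to 1.21). In the Dgcr8 knockout the list's median against WT was 0.63, and Dicer to Dgcr8 ratios had a median of 0.43: Cldn3 was 2.26-fold higher (95% interval 1.92 to 2.66) in the Dicer knockout than in the Dgcr8 knockout. The clustered protocadherins, 24 measured, had no member past 2-fold in either direction, but many of their entries share exons and so share counts.

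Filament genes did not all go one way. In the list of intermediate filaments and lamins 11 of 21 measured members were higher and 3 lower, with a median log2 ratio of 1.06. Krt17, a keratin of stressed epithelium, was 5.36-fold higher (95% interval 4.91 to 5.87), and the neuronal filaments Ina and Nefl were 9.43-fold higher (95% interval 6.95 to 13.1) and 7.20-fold higher (95% interval 5.81 to 9.01). Des, the muscle filament, had 50.9 CPM in WT against 1.62 in the Dicer knockout and was 31.4-fold lower (95% interval 20.1 to 51.8), and Prph, of peripheral neurons, was 2.74-fold lower (95% interval 2.24 to 3.36). The higher and the lower members thus both include genes of differentiated cells.

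Of 19 collagen genes measured, 8 were lower and 3 higher, with a median of -0.52. Of the 8, 4 reached the floor of 1 CPM only in WT, and 1 of the 3 only in the knockout. The summed level of all 19 lay the other way, at 465 CPM in WT against 974 in the knockout. Most of it was Col18a1, a basement membrane collagen, with 253 CPM in WT against 839.8 in the Dicer knockout. Col1a1, the main fibrillar collagen of fibroblasts, had 9.77 CPM in WT against 0.406 in the Dicer knockout, Col13a1, a transmembrane collagen, 8.36 CPM in WT against 0.487 in the Dicer knockout, and Col2a1, of cartilage, 1.91 CPM in WT against 20.9 in the Dicer knockout. A list of feeder and stromal fibroblast genes was set beside the collagens, and bulk counts do not show which cells expressed either. Of 15 measured, 6 were lower and 3 higher, while the sum of all 15 was 742 CPM in WT against 1110.2 in the knockout. Of the 6 lower ones, 3 reached the floor only in WT, and 1 of the 3 higher ones only in the knockout. The 4 measured feeder markers, of 12 listed, include Col1a1 itself and so are not separate from the collagens. They summed to 41.2 CPM in WT against 3.01 in the knockout, the highest at 17.6 CPM in WT and 1.3 in the knockout. Their part in the collagen result was not tested. In bulk RNA, fewer cells of a type and less RNA per cell cannot be told apart. Matricellular genes gave 8 higher and 5 lower of 26, or 30.8% and 19.2%, against 16.0% and 9.70% of all genes. Of the 8, 3 reached the floor only in the knockout, and 1 of the 5 only in WT. Bgn, a proteoglycan, was 22.3-fold lower (95% interval 5.74 to 191). Among integrin and laminin genes, Itgav, a receptor for vitronectin, was 6.14-fold higher (95% interval 5.20 to 7.31), and Lama1, the laminin of the embryonic basement membrane, 3.95-fold lower (95% interval 3.44 to 4.54).

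Genes of the Hippo pathway were among the groups with the most higher members. The pathway's kinases hold the co-activators YAP and TAZ out of the nucleus, and its output genes include secreted matrix proteins. In this list 17 of 36 measured members were higher and 2 lower, with a median log2 ratio of 0.94. Among the kinases Lats2 was 20.2-fold higher, and among output genes Ctgf and Cyr61, matricellular proteins, were 5.98-fold higher (95% interval 4.93 to 7.31) and 6.17-fold higher (95% interval 4.74 to 8.16). Vgll3, a partner of TEAD factors, had 10 counts in WT against 147 in the Dicer knockout. Lower members were Myof, a membrane repair protein, at 4.31-fold lower (95% interval 3.19 to 5.89), and Amot, which tethers YAP, at 41 counts in WT against 17 in the Dicer knockout. Myof stood at 93.9 CPM in the Dgcr8 knockout, above WT at 19.9, so the 2 knockouts lay on opposite sides of WT.

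The Hedgehog pathway acts through the receptor Patched and the factor Gli1, and both are also its targets. Of 17 measured, 6 were higher and none lower, with a median of 0.48. Of the 6, 2 reached the floor of 1 CPM only in the knockout. Under TMM scaling, median-ratio scaling or a pseudocount of 0.1 CPM 1 member was lower; the lowest ratio was that of Boc, a co-receptor, at 2.62 CPM in WT against 0.812 in the Dicer knockout. Gli1 had 9.06 CPM in WT against 108 in the Dicer knockout and was 12.0-fold higher (95% interval 9.66 to 15.0), Ptch1 was 10.7-fold higher (95% interval 7.86 to 14.9), and Hhip, a decoy for the ligand, had 5 counts in WT against 440 in the Dicer knockout and was 71.0-fold higher (95% interval 30.2 to 219.8). Gas1, a co-receptor, had 0 counts in WT against 33 in the Dicer knockout and was at least 8.88-fold higher. All 4 were also above WT in the Dgcr8 knockout, at 54.7, 37.4, 28.0 and 1.44 CPM in that order, and the shared WT library sets the base of both.

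In the Notch list 10 of 27 measured members were higher and 2 lower, with a median log2 ratio of 0.79. Ligands were higher, Dll1 at 8.47-fold higher (95% interval 4.11 to 20.3) and Jag1 at 5.65-fold higher (95% interval 3.52 to 9.53), as was Lfng, which modifies the receptor, at 6.69-fold higher (95% interval 4.24 to 11.1). Maml2, a co-activator, had 0 counts in WT against 96 in the Dicer knockout and was at least 25.8-fold higher. The 2 lower members were the receptor Notch4, at 2.47-fold lower (95% interval 2.05 to 2.99), and the non-canonical ligand Dlk1, which lies in an imprinted cluster.

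Wnt genes differed in both directions, and so did those of the other growth factor pathways. Of 39 Wnt genes, 14 were higher and 9 lower. Of the 14, 5 reached the floor of 1 CPM only in the knockout, and 6 of the 9 only in WT. With a pseudocount of 5 CPM, 8 were higher and 2 lower. Notum, an enzyme that inactivates Wnt ligands, had 6.54 CPM in WT against 169 in the Dicer knockout and was 25.8-fold higher (95% interval 20.2 to 33.6), and the receptor Fzd2 was 7.83-fold higher (95% interval 5.97 to 10.4). The ligand Wnt6 was 10.6-fold lower (95% interval 5.84 to 21.3), the receptor Fzd5 3.03-fold lower (95% interval 2.69 to 3.42), and Axin2, the feedback inhibitor often read as a measure of the pathway, 4.96-fold lower (95% interval 2.59 to 10.3). Of 27 Nodal and TGF-beta genes 10 were higher and 5 lower. Of the 10, 2 reached the floor only in the knockout. Lefty1, a secreted inhibitor of Nodal, had 46.8 CPM in WT against 1329.7 in the Dicer knockout and was 28.4-fold higher (95% interval 25.9 to 31.2). The ligand Tgfb1 was 6.76-fold lower (95% interval 4.27 to 11.2), and Tdgf1, the Nodal co-receptor Cripto, 3.53-fold lower (95% interval 3.42 to 3.64). Of 23 BMP genes 5 were higher and 5 lower, 21.7% each, against 16.0% and 9.70% of all genes. Bmp4 was 14.1-fold lower (95% interval 8.45 to 25.2) and Id1 2.16-fold lower (95% interval 1.96 to 2.38), whereas Id2 and Id4, inhibitors of basic helix-loop-helix factors, were 7.55-fold higher (95% interval 6.39 to 8.98) and 20.2-fold higher (95% interval 9.05 to 55.8). The Id genes, all classed as BMP targets, therefore did not move together.

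In the FGF list 11 of 32 measured members were higher and 8 lower, 4 of those 8 reaching the floor of 1 CPM only in WT. The list's median log2 ratio was 0.08. Its receptors diverged: Fgfr3 had 27.6 CPM in WT against 0.406 in the Dicer knockout and was 67.9-fold lower (95% interval 28.8 to 211), whereas Fgfr2 was 5.31-fold higher (95% interval 3.76 to 7.68), and Erbb3, of the EGF receptor family, 11.3-fold higher (95% interval 8.25 to 15.8). Feedback and output genes of ERK, Etv4 and Spry4, were 7.81-fold lower (95% interval 6.93 to 8.82) and 2.88-fold lower (95% interval 2.59 to 3.20), while the early-response factor Egr1 was 8.02-fold higher (95% interval 4.93 to 13.8). The median of this list becomes negative under TMM scaling, and that of genes at 5 CPM or more is 0.59, so the list as a whole has no stable lean.

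Among naive and core pluripotency genes 7 of 33 measured members were higher and 8 lower, with a median log2 ratio of -0.09. Dppa3, a maternal factor that guards methylation marks, had 4.93 CPM in WT against 23.3 in the Dicer knockout, Socs3, a feedback inhibitor of STAT3, 107 CPM in WT against 30.0 in the Dicer knockout, and Il6st, the signalling subunit of the LIF receptor, 24.7 CPM in WT against 95.9 in the Dicer knockout. Of 20 primed epiblast genes 12 were higher and 1 lower, with a median of 1.32. Of the 12, 5 reached the floor of 1 CPM only in the knockout. The median was 0.69 with a pseudocount of 5 CPM and 1.98 with one of 0.1 CPM, and outside chromosomes 8 and 14, 8 of 16 were higher with a median of 0.91. Sox11, a neural and epiblast factor, was 5.91-fold higher (95% interval 5.01 to 7.01), and Sall2, a zinc finger factor, 6.47-fold higher (95% interval 4.81 to 8.87). The lower one was Etv4. For the Dgcr8 knockout the median of the primed list against WT was 0.48.

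Among neural ectoderm genes 18 of 25 measured members were higher and 2 lower, with a median log2 ratio of 1.73. Among the 18 higher ones, 9 reached the floor of 1 CPM only in the knockout, and with a pseudocount of 5 CPM 11 of 25 were higher, with a median of 0.87. Crmp1, a growth cone protein, was 14.5-fold higher (95% interval 10.9 to 19.5), and Neurog1, a proneural factor, had 0 counts in WT against 119 in the Dicer knockout. Against this, Elavl4, a neuronal RNA-binding protein, was 7.44-fold lower (95% interval 3.10 to 21.6), and Tubb3, neuronal tubulin, had a log2 ratio of 0.03. The 5 neural markers summed to 137.5 CPM in WT against 189 in the knockout. Most of each sum was Tubb3, the highest marker, at 126 and 129 CPM. Since Tubb3 hardly differed, most of the difference between the sums lay in the other markers. Of 18 endoderm genes 6 were lower and 2 higher. Of the 6, 4 reached the floor of 1 CPM only in WT, and 1 of the 2 only in the knockout. Hnf4a, the hepatic and visceral endoderm factor, had 99 counts in WT against 0 in the Dicer knockout and was at least 40.9-fold lower, and Pdgfra, of primitive endoderm, was 13.6-fold lower (95% interval 4.28 to 69.5), while Gata4 was 4.03-fold higher (95% interval 2.30 to 7.56). Extraembryonic endoderm markers, 5 of 9 in the table and 2 of those at 0 in the Dicer knockout, summed to 16.2 and 7.56 CPM, and their part in the endoderm counts was not tested. Two-cell-like genes gave 16 of 17 higher, many of them near-identical copies whose counts are not separate. All 16 reached the floor of 1 CPM only in the knockout. Their median Dgcr8 to WT ratio was 0.00.

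Interferon-linked genes had 12 of 29 members higher and 3 lower, with a median of 0.47. Of the 12, 4 reached the floor of 1 CPM only in the knockout. Ifitm3, an antiviral membrane protein, was 5.58-fold higher (95% interval 5.09 to 6.12). Rsad2 and Oasl2, induced by interferon, were at least 14.3-fold higher and 31.5-fold higher (95% interval 8.42 to 264). The 3 lower members were Bst2, Oas3 and Dhx58, which are induced by interferon too, so the response genes did not move as one. In the Dgcr8 knockout the list's median against WT was 1.21, and its median Dicer to Dgcr8 ratio was -0.46. Among 21 antigen presentation genes 5 were higher and none lower, and with a pseudocount of 0.1 CPM 7 were higher and 1 lower. Of the 5, 2 reached the floor only in the knockout. The highest were Erap1, the peptide-trimming aminopeptidase, with 6 counts in WT against 257 in the Dicer knockout, and Psmb8, an immunoproteasome subunit, 11.7-fold higher (95% interval 4.33 to 44.4).

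In the Polycomb and trithorax list, genes that keep chromatin repressed or active, 6 of 38 measured members were higher and 2 lower, with a median log2 ratio of 0.38. The shares, 15.8% higher and 5.26% lower, stand beside 16.0% and 9.70% of all genes. Bmi1, a subunit of PRC1, was 7.60-fold higher (95% interval 5.30 to 11.2), and Phf19, an accessory subunit of PRC2, 5.67-fold higher (95% interval 3.93 to 8.44), whereas Mtf2, a paralogue of Phf19, was 2.54-fold lower (95% interval 2.39 to 2.69). Imprinted genes gave 3 higher and 10 lower of 34, or 8.82% and 29.4%, against 16.0% and 9.70% of all genes. Of the 10, 4 reached the floor of 1 CPM only in WT. Lower imprinted genes lay in runs, with Dlk1, Meg3, Rian and Mirg on chromosome 12 and Cdkn1c, Slc22a18 and Phlda2 on chromosome 7. Such neighbours are not separate evidence. Against WT, the Dgcr8 knockout had medians of 1.24 and -2.84 over these runs. Phlda2, which limits placental growth and lies beside Cdkn1c, was 8.33-fold lower (95% interval 6.69 to 10.5). Among apoptosis genes 3 were higher and 6 lower of 29, or 10.3% and 20.7%, against 16.0% and 9.70% of all genes. Of the 6, 2 reached the floor of 1 CPM only in WT. The death-promoting Bcl2l11 (BIM) was 3.02-fold higher (95% interval 2.58 to 3.54), and the protective Bcl2l1 2.22-fold higher (95% interval 1.95 to 2.53). Bnip3, which acts at mitochondria in hypoxia, was 3.13-fold lower (95% interval 2.80 to 3.52).

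Several differences followed the position of the genes, ordered by RefSeq GRCm38.p6, since the files' build is mm9 and only the order was used. On chromosome 14 the last 25 compared genes, from Mir17hg, the host of the miR-17~92 cluster, to Tmtc4, were all above a log2 ratio of 0. Of these, 21 were higher and none lower, with a median of 1.80. Their raw counts, not scaled for library size, summed to 4894 in WT against 17593 in the knockout. Mir17hg had 1.71 CPM in WT against 41.4 in the Dicer knockout and was 24.2-fold higher (95% interval 14.9 to 41.8). Dnajc3, an inhibitor of the kinase PERK, was 10.5-fold higher (95% interval 8.31 to 13.6), Abcc4, an exporter of cyclic nucleotides, 5.94-fold higher (95% interval 4.93 to 7.19), and Ipo5, a nuclear import receptor, with 293 CPM in WT against 628 in the Dicer knockout, 2.14-fold higher (95% interval 2.05 to 2.24). The genes nearest to 0 were Ggact (0.02) and Slc15a1 (0.25). Mir17hg stood at 42.4 CPM in the Dgcr8 knockout and was 1.03-fold lower (95% interval 0.903 to 1.17) in the Dicer knockout than there, an interval that includes 1.

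The 91 compared genes from Stc1 to Trim52 leaned the other way. Slitrk5, which lies between them and Mir17hg and is in neither stretch, had a log2 ratio of 0.94. Of the 91, 42 were lower and 2 higher, and the median was -0.82. Raw counts, not scaled for library size, summed to 106877 in WT against 73607 in the knockout, of which Tpt1 alone held 53541 and 33263. Dis3, a nuclease of the exosome, was 4.58-fold lower (95% interval 4.24 to 4.94), Klf5, a factor that sustains self-renewal, 2.76-fold lower (95% interval 2.43 to 3.14), and Spry2, an inhibitor of receptor kinase signalling, 2.29-fold lower (95% interval 2.05 to 2.57). Stc1, a secreted glycoprotein, had 79 counts in WT against 0 in the Dicer knockout. The 80 genes before those had 20 higher and 2 lower and a median of 0.42. In the Dgcr8 knockout the 3 stretches, in chromosome order, had medians against WT of 0.47, -0.75 and 1.5, and the Dicer to Dgcr8 medians were -0.02, 0.02 and 0.15. The stretch limits were chosen after the values were seen, both knockouts are read against the same WT library, and DNA was not measured. A difference specific to WT and one shared by both knockouts cannot be told apart here.

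**Figure D4:**
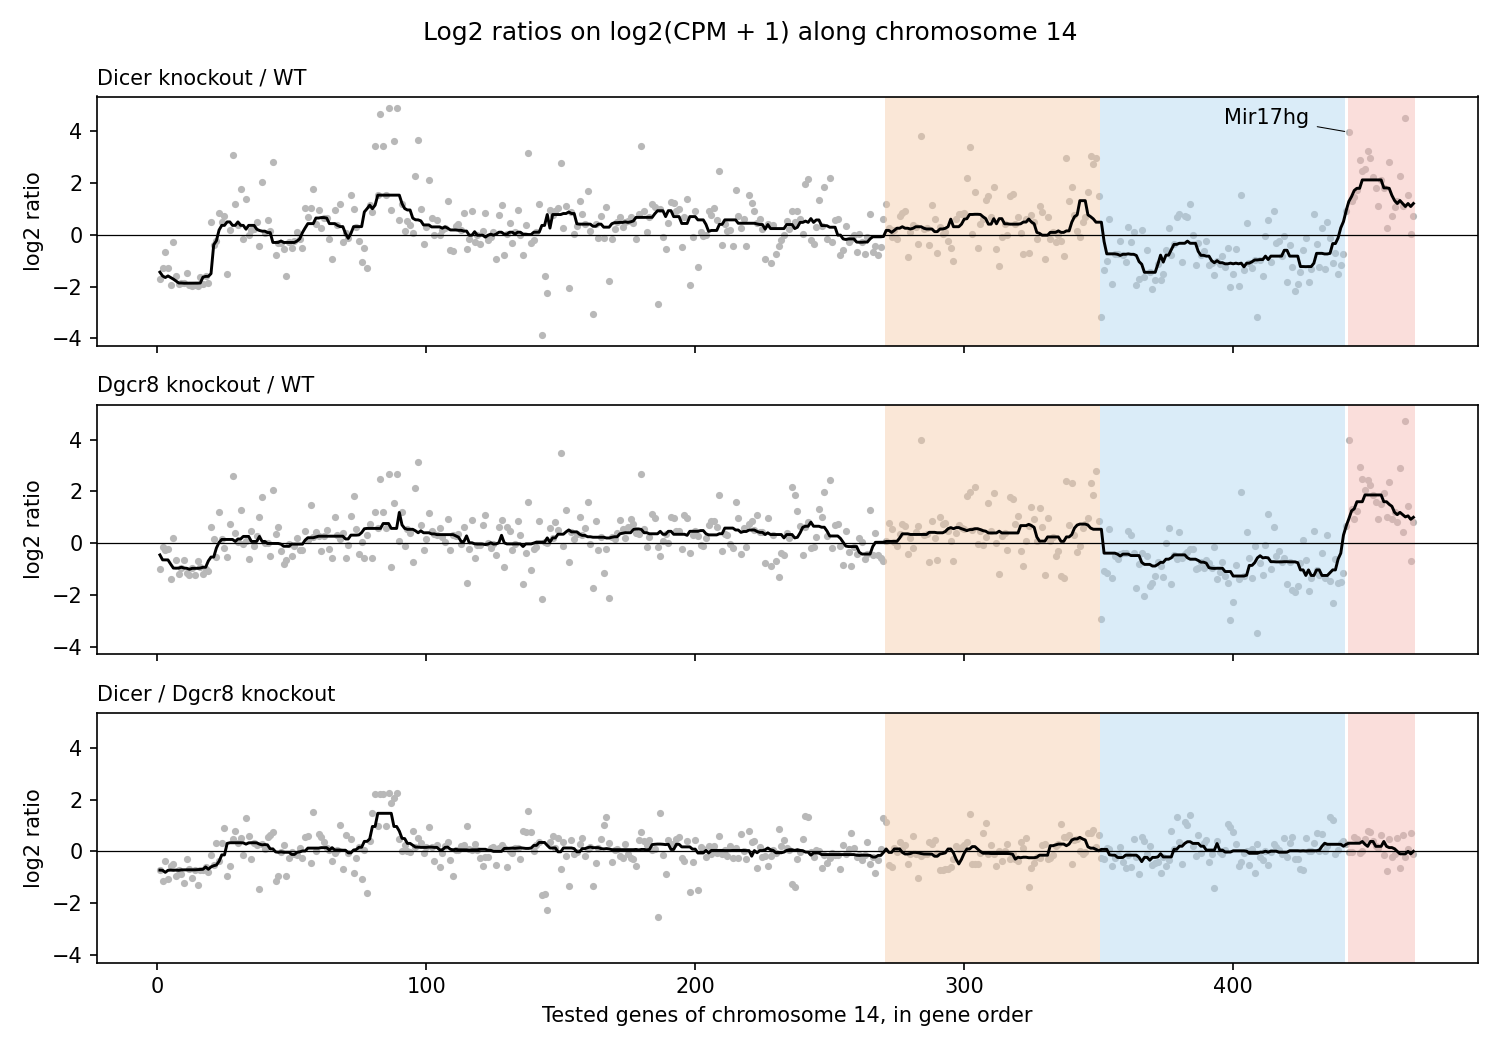
Log2 ratios on log2(CPM + 1) along chromosome 14 in gene order, with a panel each for the Dicer knockout against WT, the Dgcr8 knockout against WT and the Dicer against the Dgcr8 knockout. Points are genes, lines are running medians of 15 genes, and shading marks the 80 genes before Stc1 (orange), the 91 from Stc1 to Trim52 (blue) and the 25 from Mir17hg on (red). Both ratios to WT lie mostly below 0 in the blue stretch and above it in the red one, and the third panel stays near 0 in both.

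Chromosome 8 had a median below that of the rest of the genome in the Dicer knockout library, and not in the Dgcr8 knockout library. Of its 712 compared genes 125 were lower and 60 higher, 67.4% lay below 0 against 43.9% of genes elsewhere, and the median was -0.32 against 0.12 elsewhere. All 15 blocks of 50 neighbours, the last one shorter, had a negative median, from -0.08 to -0.59. Among genes at 5 CPM or more, however, the 25-gene window from 1810011O10Rik to Rab11fip1 had a median of 0.46, so not every stretch lay below WT. In the Dgcr8 knockout the chromosome's median against WT was 0.15. The Dicer to Dgcr8 ratio, which does not use WT, had a median of -0.45 on chromosome 8 and 0.02 elsewhere. A run of 6 neighbours there was lower, Gtl3, Csnk2a2, Ccdc113, Gins3, Ndrg4 and Setd6, with Ndrg4, of neural and cardiac tissue, 9.20-fold lower (95% interval 6.87 to 12.5). Other chromosomes also had negative medians against WT, among them X at -0.12, 15 at -0.11 and 1 at -0.09, and chromosome 1 had a Dicer to Dgcr8 median of -0.24. The number of copies of each chromosome was not measured, and its part was not tested.

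**Figure D5:**
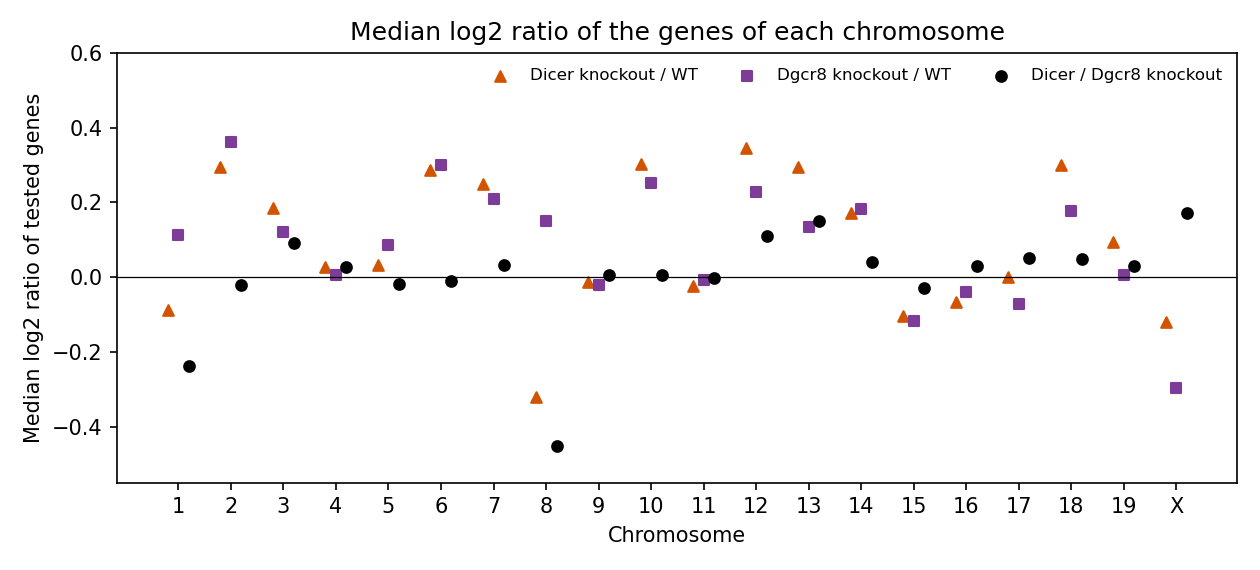
Median log2 ratio on log2(CPM + 1) of the compared genes of each chromosome, for the Dicer knockout against WT, the Dgcr8 knockout against WT and the Dicer against the Dgcr8 knockout. Chromosome Y is left out. Chromosome 8 has the lowest Dicer to WT median shown, -0.32, and its Dicer to Dgcr8 median is -0.45, while its Dgcr8 to WT median is 0.15.

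Runs of neighbours on one side were counted over all chromosomes, 8 and 14 included. In gene order 144 runs of 3 or more neighbours lay past 2-fold on the same side, 97 higher and 47 lower, together 539 genes. Of these runs, 43 held 4 or more genes and 15 held 6 or more. With 16.0% of all genes higher and 9.70% lower, some short runs would occur whatever the order of the genes. Their number was not worked out, so the count of runs does not by itself show clustering. Some runs are families of near-identical copies, such as 6 Zscan4 genes and 13 predicted genes at the start of chromosome 14, and their counts may be shared. Others join unrelated genes. On chromosome 10 Pfkl, a phosphofructokinase, Aire, the regulator of thymic self-antigens, Dnmt3l, a cofactor of DNA methylation, and Icosl, a co-stimulatory ligand, were all lower, with Pfkl 2.60-fold lower (95% interval 2.47 to 2.73). On chromosome 9 Sema7a, Cyp11a1, Ccdc33, Islr and Islr2 were lower, from the guidance protein Sema7a at 136 counts in WT against 50 in the Dicer knockout to Cyp11a1, the first enzyme of steroid synthesis, at 189 counts in WT against 4 in the Dicer knockout. On chromosome 2 Plekha3, the giant muscle gene Ttn (32 counts in WT against 379 in the Dicer knockout), Ccdc141 and Sestd1 were higher. The sources used here do not say whether the authors counted by strand, so overlapping and antisense neighbours may share reads.

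Promoter sequence was set beside these ratios. RefSeq GRCm38.p6 promoters, 250 bases before to 50 after the start, were matched to 10639 of the compared genes, or 79.4%. A promoter was called CpG-poor where its observed over expected CpG ratio was under 0.4, which held for 1589, or 14.9%. Of genes with CpG-poor promoters 23.9% were higher and 15.0% lower, against 14.1% and 8.48% of the others. Because CpG-poor genes are often low, the comparison was repeated within 4 equal classes of level. In the top class 22.9% of 179 CpG-poor genes were higher and 6.15% lower, against 7.82% and 4.35% of 2481 others, while in the lowest class the higher shares were 21.8% and 19.1%.

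The promoters below show the contrast in the top class of level, each 300 bases of the coding strand, 5′ to 3′, with CpG in capitals. Ifitm1, Sfn and Lima1 are among the 6 CpG-poor genes highest in ratio there, and Cacybp and Eif2b4 are among the others nearest to a ratio of 1. Cdca3, also among those others and not printed, had 10 CpG and an observed over expected ratio of 0.469, close to the limit of 0.4. The promoters shown were chosen by their values, so the contrast between them is not typical of the 2 classes. The coordinates are Ifitm1 chr7:140967826-140968125, plus strand, 5 CpG, Sfn chr4:133602119-133602418, minus strand, 4 CpG, Lima1 chr15:99820100-99820399, minus strand, 1 CpG, Cacybp chr1:160212843-160213142, minus strand, 30 CpG and Eif2b4 chr5:31193090-31193389, minus strand, 25 CpG.
Ifitm1: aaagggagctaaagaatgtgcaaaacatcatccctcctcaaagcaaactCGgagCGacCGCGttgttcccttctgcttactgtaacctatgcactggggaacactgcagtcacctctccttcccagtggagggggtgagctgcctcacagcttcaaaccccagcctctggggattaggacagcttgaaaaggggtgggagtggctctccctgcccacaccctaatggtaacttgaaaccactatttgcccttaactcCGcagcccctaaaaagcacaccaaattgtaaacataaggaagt
Sfn: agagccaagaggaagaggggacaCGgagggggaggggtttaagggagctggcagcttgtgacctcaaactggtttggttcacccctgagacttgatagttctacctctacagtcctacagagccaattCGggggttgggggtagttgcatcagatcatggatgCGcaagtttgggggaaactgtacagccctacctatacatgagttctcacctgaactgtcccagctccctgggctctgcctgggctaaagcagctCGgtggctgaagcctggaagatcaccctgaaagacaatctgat
Lima1: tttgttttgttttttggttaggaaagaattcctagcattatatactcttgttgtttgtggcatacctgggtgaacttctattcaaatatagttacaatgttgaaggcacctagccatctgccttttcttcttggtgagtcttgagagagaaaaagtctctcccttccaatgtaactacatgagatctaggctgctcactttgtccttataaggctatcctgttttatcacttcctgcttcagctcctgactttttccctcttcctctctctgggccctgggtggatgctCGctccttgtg
Cacybp: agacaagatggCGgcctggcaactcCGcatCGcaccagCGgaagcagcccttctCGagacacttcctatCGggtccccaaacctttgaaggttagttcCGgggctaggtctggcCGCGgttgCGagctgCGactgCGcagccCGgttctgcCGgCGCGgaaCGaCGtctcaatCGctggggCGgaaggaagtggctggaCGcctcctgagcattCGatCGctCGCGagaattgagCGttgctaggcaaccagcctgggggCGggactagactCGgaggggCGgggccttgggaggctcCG
Eif2b4: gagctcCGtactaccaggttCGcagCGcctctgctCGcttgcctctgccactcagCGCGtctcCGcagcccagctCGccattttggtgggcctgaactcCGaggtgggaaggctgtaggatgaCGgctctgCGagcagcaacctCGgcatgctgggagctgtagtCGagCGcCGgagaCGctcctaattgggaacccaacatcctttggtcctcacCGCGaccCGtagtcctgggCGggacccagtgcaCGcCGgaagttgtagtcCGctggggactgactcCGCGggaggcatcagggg

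Sfn encodes 14-3-3 sigma, an epithelial regulator of the cycle, and had 35.3 CPM in WT against 331 in the Dicer knockout, 9.35-fold higher (95% interval 8.39 to 10.5). Lima1, an actin-binding protein of stress fibres, had 26.6 CPM in WT against 211 in the Dicer knockout and was 7.92-fold higher (95% interval 6.98 to 9.03). Cacybp, a partner of the SIAH ubiquitin ligase complex, had 405 CPM in WT against 405 in the Dicer knockout, and Eif2b4, a subunit of the exchange factor for eIF2, 69.6 CPM in WT against 69.5 in the Dicer knockout. Promoters were also searched on both strands for 8 motifs. The ETS letters CCGGAAG were in 17.9% of all promoters, in 9.79% of those of higher genes, 13.0% of lower and 20.3% of the remaining genes. The TATA letters TATAAA were in 7.16% of all, 9.43% of higher, 7.26% of lower and 6.68% of the remaining. The E-box CACGTG, in 10.4% of all, and the SP/KLF letters GGGCGGG, in 48.2%, differed less between the classes: 9.37%, 10.4% and 10.6% for the first and 46.7%, 46.8% and 48.7% for the second. The other motifs were CCAAT, the TEAD letters GGAATG, the AP-1 letters TGANTCA and the CRE letters TGACGTCA, in 39.6%, 12.0%, 4.71% and 3.25% of all promoters. For higher, lower and remaining genes the shares were 37.1%, 39.0% and 40.2% for CCAAT and 13.9%, 12.0% and 11.6% for TEAD. They were 5.08%, 5.97% and 4.47% for AP-1 and 2.84%, 1.69% and 3.53% for CRE, which was in only 346 promoters. A match describes letters in this window and not a bound site, and motif content was not matched on level or on CpG content. The ETS, E-box, SP/KLF and CRE letters each hold a CpG. CpG-poor promoters made up 22.9% of those of higher genes, 23.7% of lower and 12.2% of the remaining. The ETS and CRE shares are therefore not separate from the CpG result.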

How the data were processed

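The authors deposited raw counts: whole numbers for each RefSeq entry in 3 mRNA columns, and for each mature miRNA of WT small RNA in a separate table. Per the submitters' processing notes, reads were aligned with Bowtie to mm9; its version, the counting program, the gene models and the handling of strand (not given in the sources used here) may change values of overlapping genes. Columns summed to 9931625 (WT), 11123498 (Dgcr8 knockout) and 12309100 (Dicer knockout). Of counts from 2 and below 10, 69.6% in WT and 69.7% in the Dicer knockout were even, so the counts of low genes may not be independent reads and the intervals may be too narrow.

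Empty cells were read as 0. CPM were taken over each column, and rows reaching 1 CPM on at least 1 side were compared on log2(CPM + 1), called at 2-fold. Intervals are exact conditional binomial ones at 95%; a library at 0 was set to 3 counts and the ratio given as a bound. Python 3.11.15, pandas 2.3.3 and scipy 1.17.1 were used, with edgeR 4.0.16 in R 4.3.3 for TMM factors only. The calling and interval steps were tested on simulated data.

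The comparison, the gene lists and the promoter classes were chosen with earlier results of these data known. Genes were named by a rule: the miRNA biogenesis genes, the 15 highest and 15 lowest ratios among named genes at 5 CPM or more, the 10 largest gains and losses of CPM, up to 5 members at each end of a list, runs of 4 or more neighbours and the cell type markers; promoters shown and genes said to be picked out were chosen by value. RefSeq GRCm38.p6 gave gene order and promoters, and RefSeq miRNA sequences matched 546 of 707 names, with 87.9% of reads. No sample was left out.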

Additional observations from a re-analysis of the deposited data

How the results depend on the processing

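With 1 library a side, no replicate could be left out, and the counts below describe these 2 libraries. The numbers of genes past the size rule moved most with the rule itself: 3759 were higher and 2642 lower at 1.5-fold, and 539 and 233 at 4-fold. A pseudocount of 5 CPM gave 1232 higher and 591 lower, since it shrinks the ratios of low genes, while 0.1 CPM gave 2503 and 1718. A floor of 5 CPM gave 1731 and 916. TMM and median-ratio scaling gave 1913 and 1510, and 1903 and 1526, and with the latter the median of all genes turned to -0.006. Leaving out chromosomes 8 and 14 gave 1988 and 1100, and keeping 1 row of each set with identical counts gave 2135 and 1299; both were chosen after seeing the data. The median of the last 25 genes of chromosome 14 stayed between 1.22 and 2.34 over pseudocounts, floors and scalings. That of the 91 genes from Stc1 to Trim52 stayed between -0.98 and -0.70, and that of chromosome 8 between -0.42 and -0.23. Median-ratio or TMM scaling turned the medians of the G2/M, matrix protease, FGF, heat shock, immediate early and retinoid lists negative. The medians of the germline and mesoderm lists changed sign at a floor of 5 CPM, to 0.45 and -1.22. For the 205 genes named, 820 values under other pseudocounts and scalings held no reversal, 679 stayed within the counting interval and 141 left it. With every count divided by 2, as for mates counted separately, 7 of the 205 intervals include 1. Ratios resting on a few counts on one side are limited by depth: 3 counts equal 0.302 CPM in WT and 0.244 in the Dicer knockout.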
